A study of Homo sapiens with 9 samples.

Results

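Both engineered lines of the study, pooled with equal weight per line, were compared with their parental cells. The members are the 6 RNA-seq libraries whose names start with KD or OE, set against the 3 parental libraries, which makes all 9 libraries of the series. The genes described are those that moved the same way by a similar amount in both engineered lines, 2292 of 22290 genes with values. The cells are labelled IMR-32, a line established from a human neuroblastoma. The parental group (n = 3) carries the wild-type genotype, the KD group (n = 3) is labelled as a knockdown of TRAP-1 and the OE group (n = 3) as an overexpression of TRAP-1. Each engineered line is a single line. How the lines were made is not described in the sources used here, and no line carrying an empty vector was analysed here. Nothing in the labels says that the libraries of a group came from separate cultures, so the p-values measure only the spread between these libraries, which may be technical.

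TRAP1 encodes a mitochondrial member of the HSP90 family of chaperones and is known for effects on respiration and on the stability of hypoxia-inducible factor (HIF). HIF is degraded in well oxygenated cells and, when stable, binds DNA next to genes for glycolysis, glucose uptake, pH control and mitophagy. A response shared by lines labelled as a knockdown and as an overexpression of the same gene is one that does not follow the label.

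The targeted gene was read first, in rlog values. An rlog value is a regularized log2 expression value, in which differences are shrunken, more so at low levels. TRAP1 (ENSG00000126602, chromosome 16 from 3651639 to 3717553, minus strand) had rlog values of 10.67, 10.66 and 10.65 in the parental libraries, 10.79, 10.79 and 10.83 in those labelled KD and 10.67, 10.63 and 10.74 in those labelled OE. The libraries labelled KD were the highest in TRAP1, and those labelled OE overlapped the parental ones. Against parental, the difference was 0.14 for KD (adjusted p = 1.8e-05, limma) and 0.018 for OE (adjusted p = 0.643, limma). This goes against the KD label, and the OE label is not borne out in TRAP1 RNA. The groups are therefore called the libraries labelled KD and labelled OE throughout. The pooled difference of TRAP1 was 0.079 (standard error 0.0218, adjusted p = 0.0032, limma). It was no longer called with the 6 engineered libraries as 1 group (adjusted p = 0.241, limma). Of the bases of its exons, 28.5% overlap other genes, and the library kit does not mark strand, so reads of overlapping genes cannot be told apart.

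The cell type label was checked against marker genes, by levels not adjusted for gene length. Of 18 markers of adrenergic neuroblastoma, 12 had values and none of these reached the 95th percentile of parental levels. The sympathetic regulator PHOX2A had a parental rlog mean of 1.33 and MYCN one of 2.52. TH, the enzyme that starts catecholamine synthesis, was at 2.84, whereas HAND2 was at 6.36, GATA3 at 7.25, GATA2 at 9.27 and ISL1 at 9.37. Some markers of other cells were high in the parental libraries, with VIM at 15.72, ERBB3 at 13.98, KRT18 at 12.06 and S100B at 11.09, of which VIM and ERBB3 reached that percentile. Others of the same lists were low, as EPCAM at 2.59, KRT5 at 1.46 and COL1A2 at 1.35. The low defining markers go against the label of the cells, which the study's methods describe as authenticated, and no other name is given to them. Of all markers with values, KDR and PRRX1 moved furthest with the engineered lines. The endothelial marker KDR had a pooled difference of -1.08 (adjusted p = 8.3e-20, limma) and the mesenchymal marker PRRX1 one of 0.99 (adjusted p = 2.4e-29, limma). The median level of the 10 mesenchymal markers with values was 4.86 in parental, 4.79 in KD and 4.98 in OE, and that of the 6 endothelial ones 4.48, 4.55 and 4.52. Of the mesenchymal ones at higher levels, TWIST1 had a pooled difference of 0.35, VIM one of 0.26 and PDGFRB, not called, one of 0.079. CDH5, which defines endothelium, was at 0.63. The part of these markers in the results below was not tested. In bulk RNA, a change in the share of cells of a kind and a change in RNA per cell cannot be told apart.

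In the pooled contrast, the mean of the differences of both lines from parental, 10552 of 22290 genes (47.3%) were called at an adjusted p under 0.05. Of these, 5235 (23.5%) were higher in the engineered lines and 5317 (23.9%) lower. This near-even split depends on scaling. With each library centred on its own median, 4480 genes were called higher and 6379 lower. A gene was counted as similar-amount where it was called, had the same sign in both lines, had its larger difference at most 1.5 times its smaller one, and had all 6 engineered libraries beyond all 3 parental libraries. That separation of the libraries held for 6231 genes (28%). The similar-amount genes numbered 2292 (10.3% of all), 1038 higher (4.66%) and 1254 lower (5.63%). These counts follow from the rule and are a description with no test. The same centring gave 770 similar-amount genes higher and 1712 lower. A stricter factor gave 574 and 724, and a factor of 2 gave 1715 and 1939.

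Most called genes were not shared evenly. Of the 10552, 6857 moved in the same direction without meeting the rule, 5643 of them further in the libraries labelled KD, and 1403 moved in opposite directions. Between the engineered lines themselves, KD against OE, 10552 genes (47.3%) were called as well. Though equal in number these were not the same genes, as 7191 were called in both. Among the similar-amount genes, 1945 were not called between KD and OE, which the rule's limit on the factor between the lines favours. With the 6 engineered libraries as 1 group, so that the gap between the lines counts as error, 4178 genes were called in place of 10552, 1937 higher and 2241 lower. Both line contrasts share the same parental libraries, so a shift of those 3 libraries would appear in both and cannot be told apart from a shared response.

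The shared differences were small on the rlog scale. Their median size was 0.15, beside 0.14 for the called genes that moved in the same direction without meeting the rule, and 92 similar-amount genes had a pooled difference beyond 0.5, 46 in each direction. For the higher genes the median difference from the parental mean was 0.16, 0.16 and 0.16 in the libraries labelled KD and 0.15, 0.15 and 0.15 in those labelled OE. For the lower genes it was -0.15, -0.15 and -0.15 in those labelled KD and -0.15, -0.14 and -0.13 in those labelled OE. The rule, which limits the factor between the lines, makes these medians alike. Protein-coding genes made up 1900 of the similar-amount genes, 12.9% of those with values, and long noncoding RNAs 314, 6.02% of theirs, while 58% and 30% of these classes were called at all.

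**Figure D1:**
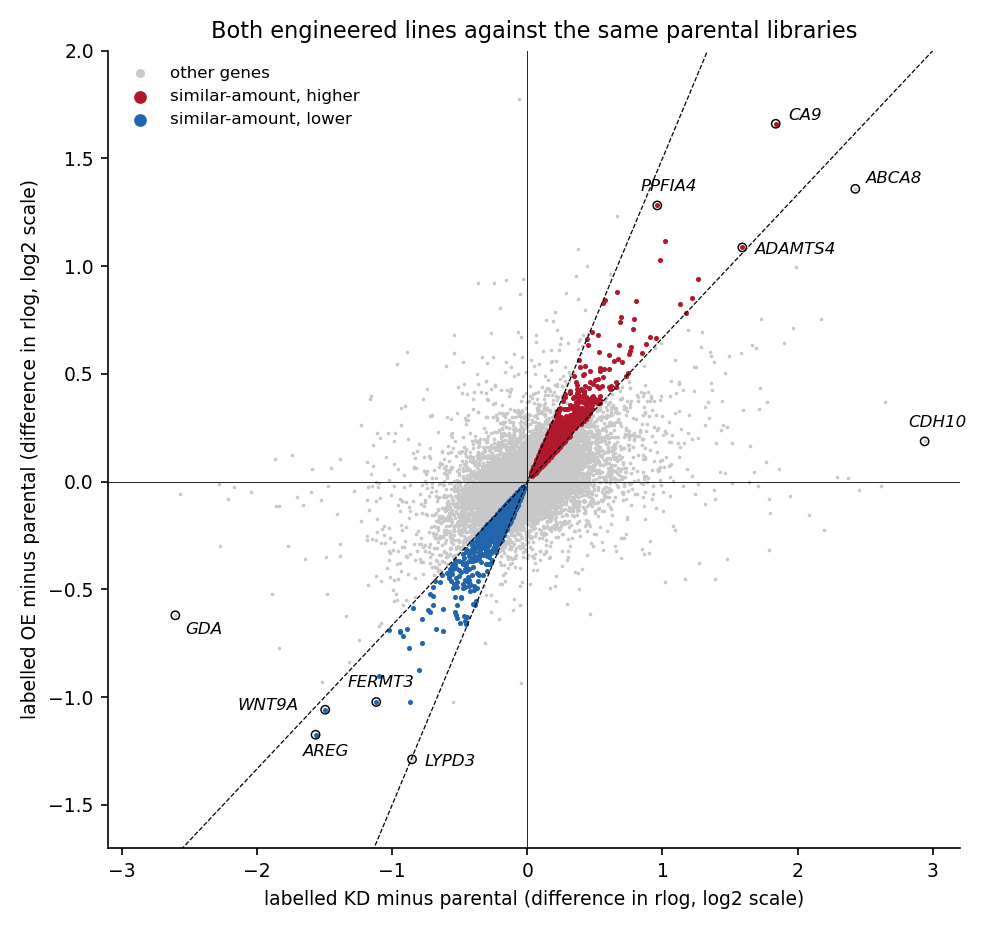
Difference in rlog from parental (log2 scale) of each of 22290 genes, in the libraries labelled KD on the horizontal axis and in those labelled OE on the vertical axis, with similar-amount genes in red (higher) and blue (lower) and dashed lines at a factor of 1.5. CA9 at 1.84 and 1.66 and AREG at -1.57 and -1.17 lie at the far ends of the coloured wedges, and the grey cloud is wider along the KD axis.

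In what follows, values given in pairs are differences in rlog from the parental mean, first of the libraries labelled KD and then of those labelled OE. For similar-amount genes the rule requires all 6 engineered libraries to lie beyond the parental ones, so that separation is not a result. CA9 led the higher genes. It encodes a carbonic anhydrase of the cell surface that acts in pH control and is among the best known HIF targets. CA9 (ENSG00000107159, chromosome 9 from 35673928 to 35681159) read 7.04, 6.99 and 7.06 in the parental libraries, 8.80, 8.91 and 8.90 in those labelled KD and 8.70, 8.71 and 8.67 in those labelled OE. All 6 engineered libraries lay far above the parental ones, in a narrow range. The differences were 1.84 and 1.66 and the pooled difference was 1.75 (standard error 0.0331, adjusted p = 2.3e-28, limma). Other genes overlap 35.7% of the bases of its exons. The lncRNA MIR210HG, host transcript of a hypoxia-induced microRNA, read 6.71, 6.68 and 6.81 in the parental libraries, 7.70, 7.76 and 7.69 in those labelled KD and 7.70, 7.80 and 7.78 in those labelled OE. It had differences of 0.98 and 1.03, and KD minus OE was -0.048 (95% confidence interval -0.14 to 0.041).

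ADAMTS4, a protease that cleaves the proteoglycan aggrecan, read 8.43, 8.40 and 8.52 in the parental libraries, 9.999, 10.04 and 10.08 in those labelled KD and 9.49, 9.57 and 9.55 in those labelled OE. Both lines were above parental without overlap, and the libraries labelled KD were above those labelled OE. Its pooled difference was 1.34 (standard error 0.0291, adjusted p = 8.0e-27, limma). NRN1 encodes neuritin, a membrane-anchored protein that promotes neurite growth, and read 8.02, 8.11 and 8.02 in the parental libraries, 9.09, 9.03 and 9.08 in those labelled KD and 9.17, 9.16 and 9.17 in those labelled OE. Here the libraries labelled OE were slightly the higher ones, with differences of 1.02 and 1.12. PPFIA4, a liprin scaffold of the synapse, had differences of 0.96 and 1.28 and a pooled difference of 1.12 (standard error 0.0199, adjusted p = 4.6e-29, limma).

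The other higher genes of the leading 12 have varied roles. ABCB4, a phospholipid transporter of the ABC family, had differences of 1.26 and 0.94. MOXD1, a relative of dopamine beta-hydroxylase, had 1.22 and 0.85. The integrin subunit gene ITGA9 had 0.80 and 0.84, with KD minus OE at -0.039 (95% confidence interval -0.10 to 0.027). FOLH1, a membrane carboxypeptidase, had 1.17 and 0.78 and lay just inside the limit at a ratio of 1.497. Leaving out parental replicate 3, KD replicate 2 or OE replicate 1 put it outside, as did median centring and quantile normalization. TF, which encodes the iron carrier transferrin, had 0.78 and 0.71, SPAG4 of the nuclear envelope 0.70 and 0.76, and LINC01608 1.13 and 0.83.

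**Figure D2:**
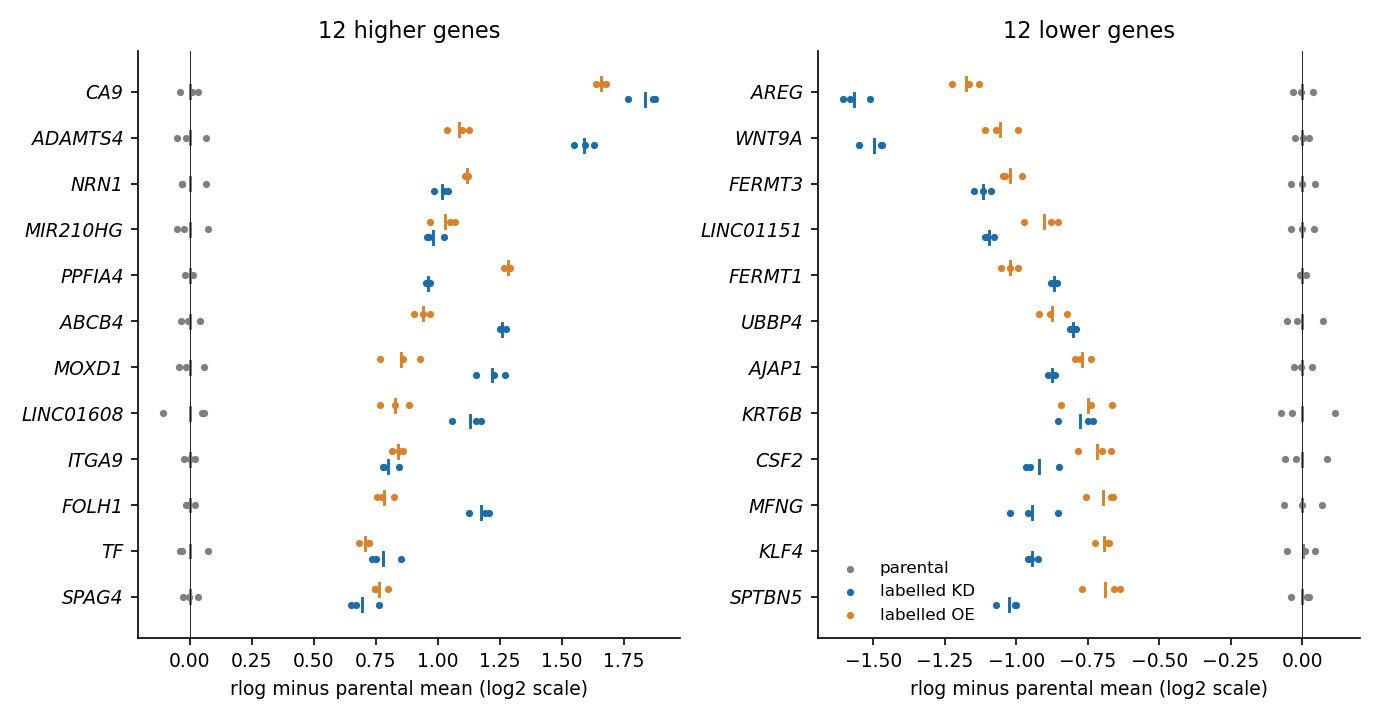
rlog value minus the parental mean (log2 scale) of each library for the 12 higher and the 12 lower similar-amount genes with the largest smaller difference, as dots with a bar at each group mean (n = 3). In each of the 24 genes the 6 engineered libraries lie apart from the 3 parental libraries, which the rule requires, and the gap between the lines is widest for ADAMTS4 and WNT9A.

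Most HIF targets were higher. Of the listed hypoxia-induced genes, 26 of 33 measured genes were called higher and 4 lower (78.8% and 12.1%). Over all genes the shares were 23.5% and 23.9%, against which the lists below are to be read as well. Calls depended on level, with 16.8% of genes called in either direction where the mean rlog was under 5, 52.3% from 5 to 8, 68.3% from 8 to 11 and 74.2% at 11 or more, so that for lists of abundant genes the share over all genes is a low measure. The median pooled difference was 0.21 (0.17 in KD and 0.32 in OE), beside 0.0016 over all genes. Similar-amount were 10 higher and 1 lower (30.3% and 3.03%, beside 4.66% and 5.63% of all genes). Members that moved unevenly were further from parental in the libraries labelled OE in several cases, as TMEM45A with 0.44 and 1.002 and NDRG1 with 0.43 and 0.80. The glucose transporter gene SLC2A1 had -0.26 and 0.047.

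The shared HIF targets act in glucose use, mitophagy, collagen hydroxylation and histone demethylation. SLC2A3 encodes a glucose transporter and read 10.28, 10.27 and 10.32 in the parental libraries, 10.95, 11.02 and 10.95 in those labelled KD and 11.04, 11.02 and 11.04 in those labelled OE. The pooled difference was 0.71 (standard error 0.0207, adjusted p = 1.7e-23, limma). PDK1, a pyruvate dehydrogenase kinase, read 10.32, 10.36 and 10.37 in the parental libraries, 10.99, 10.98 and 10.89 in those labelled KD and 10.97, 10.94 and 10.91 in those labelled OE. The lines overlapped each other and lay above parental, with differences of 0.60 and 0.59 and KD minus OE at 0.013 (95% confidence interval -0.040 to 0.065). BNIP3, a mitophagy receptor, read 12.11, 12.12 and 12.13 in the parental libraries, 12.68, 12.67 and 12.68 in those labelled KD and 12.96, 12.95 and 12.95 in those labelled OE, so that the libraries labelled OE were the highest, and its ratio of 1.49 is close to the limit. Its relative BNIP3L had 0.44 and 0.66, just inside the limit at a ratio of 1.497. The prolyl hydroxylase subunits of collagen synthesis had 0.50 and 0.47 for P4HA1 and 0.17 and 0.25 for P4HA2. KDM3A, a histone demethylase, had 0.42 and 0.50, the MYC antagonist MXI1 0.55 and 0.44 and VEGFA, the angiogenic growth factor, 0.16 and 0.14.

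Promoters are shown because these members moved together and HIF is known to bind a short core in DNA. The cores ACGTG and GCGTG were searched on both strands in windows from 250 bases before to 50 after the gene start, taken from RefSeq (GRCh38.p14). ACGTG lies within the E-box CACGTG, which other factors bind. Of the 11 shared HIF targets and MIR210HG, 8 matched a window. Cores were found in CA9 (chr9:35673678-35673977, plus strand), MIR210HG (chr11:568408-568707, minus strand), BNIP3 (chr10:131981874-131982173, minus strand), P4HA1 (chr10:73096817-73097116, minus strand) and KDM3A, and none in the windows of PDK1, MXI1 and P4HA2. The sequences of the first 4 run 5′ to 3′ along the gene, and capitals mark the cores, which read CACGT or CACGC where they lie on the other strand. BNIP3 has 6 core positions, a pair of them in a CACGTG.
CA9: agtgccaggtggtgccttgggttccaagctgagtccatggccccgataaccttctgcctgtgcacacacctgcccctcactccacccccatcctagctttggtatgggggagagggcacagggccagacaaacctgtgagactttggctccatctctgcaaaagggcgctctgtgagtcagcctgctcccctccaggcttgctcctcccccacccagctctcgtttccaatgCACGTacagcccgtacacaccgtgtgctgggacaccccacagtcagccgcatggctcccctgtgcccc
MIR210HG: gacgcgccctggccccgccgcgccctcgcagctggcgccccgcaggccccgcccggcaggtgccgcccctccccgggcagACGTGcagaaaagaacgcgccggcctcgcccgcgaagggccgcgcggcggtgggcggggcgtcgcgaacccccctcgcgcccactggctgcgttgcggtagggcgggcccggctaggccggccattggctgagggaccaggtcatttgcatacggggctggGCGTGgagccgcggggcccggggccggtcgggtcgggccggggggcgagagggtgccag
BNIP3: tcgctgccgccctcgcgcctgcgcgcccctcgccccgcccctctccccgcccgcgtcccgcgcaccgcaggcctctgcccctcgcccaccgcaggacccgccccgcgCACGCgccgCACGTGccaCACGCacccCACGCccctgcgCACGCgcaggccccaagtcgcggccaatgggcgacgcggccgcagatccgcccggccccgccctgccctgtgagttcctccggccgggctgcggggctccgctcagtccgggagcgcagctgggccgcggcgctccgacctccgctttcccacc
P4HA1: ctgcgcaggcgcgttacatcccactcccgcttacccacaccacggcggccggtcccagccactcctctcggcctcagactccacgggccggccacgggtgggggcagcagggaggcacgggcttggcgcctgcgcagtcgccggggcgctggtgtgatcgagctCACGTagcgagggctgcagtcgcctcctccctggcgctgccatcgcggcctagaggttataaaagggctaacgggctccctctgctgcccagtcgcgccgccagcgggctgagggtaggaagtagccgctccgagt

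Either core is common. It was in 48.4% of all 35116 windows and in 59.4% of the 13254 matched genes with values. Among similar-amount genes the share was 63.0% of 705 higher and 63.9% of 934 lower genes. The E-box was in 9.27% of genes with values, 9.93% of the higher and 10.1% of the lower genes. A match describes letters in a window and says nothing of binding.

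Glycolytic enzymes were mostly higher as well. In that list 12 of 15 measured genes were called higher and 2 lower (80% and 13.3%), beside 23.5% and 23.9% of all genes. The median was 0.14 (0.14 in KD and 0.15 in OE). Of the genes called higher, PGK1, ENO2 and LDHA are also in the list of HIF targets, so the lists are not independent. The similar-amount members were HK2, the hexokinase that binds mitochondria, with 0.48 and 0.39, and TPI1, triosephosphate isomerase, with 0.14 and 0.17. The pooled difference of TPI1, 0.16, was 0.10 after quantile normalization. The pooled difference of HK2 was 0.44 (standard error 0.0129, adjusted p = 2.6e-23, limma).

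Citric acid cycle genes went both ways. Of the citric acid cycle list, 6 of 20 measured genes were called higher and 7 lower (30% and 35%), beside 23.5% and 23.9% of all genes, with a median of -0.017 (-0.040 in KD and 0.015 in OE, -0.031 to 0.0011 across alternatives) that was 0.0011 after quantile normalization. IDH2, the mitochondrial isocitrate dehydrogenase, stood out and read 10.45, 10.40 and 10.38 in the parental libraries, 10.93, 10.95 and 10.96 in those labelled KD and 10.93, 10.92 and 10.92 in those labelled OE. Its engineered libraries lay within a narrow band above parental, with a pooled difference of 0.53 (standard error 0.0201, adjusted p = 2.0e-20, limma). SUCLG2, a subunit of succinyl-CoA synthetase, had 0.21 and 0.17. PDHA1 at 0.043 and 0.062 and SDHC at 0.030 and 0.044 were close to the threshold. Neither was called in KD against parental alone (adjusted p = 0.0963 and 0.119, limma). Neither was called in the pooled contrast after median centring or with the 6 engineered libraries as 1 group. The pooled difference of PDHA1 was 0.053 and ran from 0.037 to 0.14 across alternatives. PDHA1 was also not called without parental replicate 2 (adjusted p = 0.175, limma), and SDHC, with a pooled difference of 0.037 that was 0.018 without parental replicate 3, was not called without a variance trend or without that replicate, KD replicate 2 or OE replicate 1, with adjusted p of up to 0.33 (limma).

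Of the nuclear genes for respiratory chain subunits, 23 of 60 measured genes were called higher and 11 lower (38.3% and 18.3%). Over all genes these shares were 23.5% and 23.9%. Of the 60, 26 were not called. In either direction, 68.3% of all genes with a mean rlog from 8 to 11 were called, and 74.2% at 11 or more. The median of the list was 0.025 (0.0036 in KD and 0.043 in OE, 0.011 to 0.037 across alternatives). COX5B of complex IV had 0.13 and 0.17, COX7A2L, which joins complexes, 0.14 and 0.11, COX6B1 0.074 and 0.087, and NDUFS6 of complex I -0.18 and -0.13. Among the 13 genes of the mitochondrial genome, 8 were called higher and 2 lower. Their median was 0.10 (0.067 in KD and 0.13 in OE), and 0.032 after quantile normalization. MT-ND6 had 0.23 and 0.23, and MT-CO1 had 0.17 and 0.13 but a pooled difference of 0 after quantile normalization, since it was the top-ranked gene. In the list of HSP90 relatives and mitochondrial chaperones, 3 of 12 measured genes were called higher and 8 lower (25% and 66.7%). The median was -0.089 (-0.12 in KD and -0.045 in OE). DNAJA3, a mitochondrial cochaperone, had -0.072 and -0.088.

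**Figure D3:**
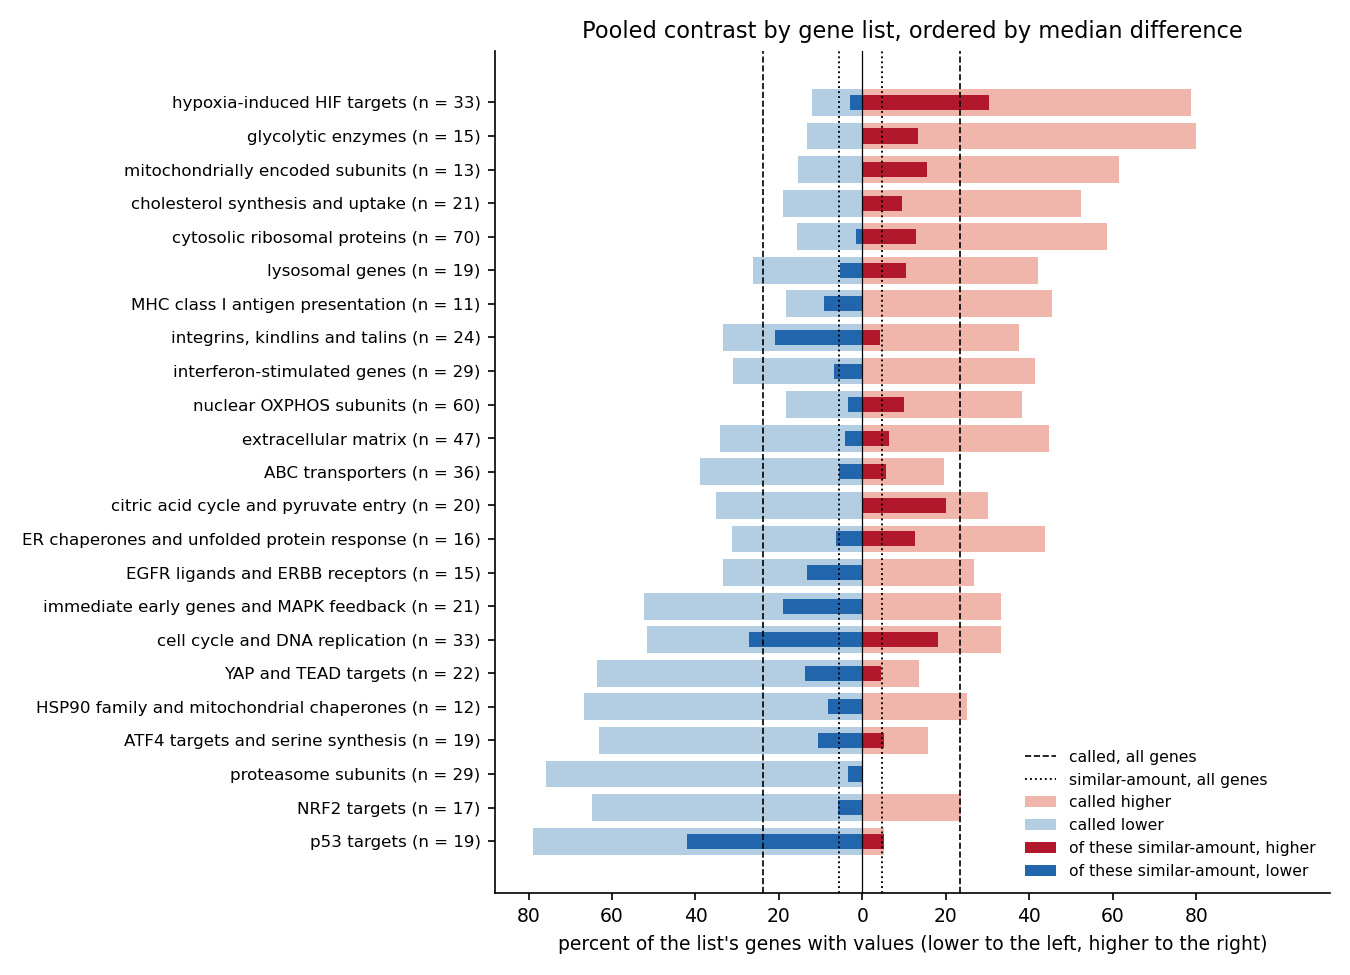
Percent of the genes of each list that were called higher (right) or lower (left) in the pooled contrast, with the similar-amount genes among them in darker bars, ordered by median pooled difference, and with dashed and dotted lines for the shares over all genes. HIF targets (78.8% higher) and p53 targets (78.9% lower) are at opposite ends.

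AREG led the lower genes. It encodes amphiregulin, a ligand of the EGF receptor. AREG (ENSG00000109321, chromosome 4 from 74445136 to 74455005) read 8.83, 8.90 and 8.86 in the parental libraries, 7.26, 7.28 and 7.35 in those labelled KD and 7.73, 7.64 and 7.70 in those labelled OE. All engineered libraries were below parental, those labelled KD the furthest, and the pooled difference was -1.37 (standard error 0.0345, adjusted p = 3.7e-25, limma). HBEGF, another ligand of that receptor, read 8.45, 8.60 and 8.53 in the parental libraries, 7.84, 7.97 and 7.90 in those labelled KD and 7.97, 7.98 and 7.85 in those labelled OE, with differences of -0.62 and -0.59. Of the EGFR ligands and ERBB receptors, 4 of 15 measured genes were called higher and 5 lower (26.7% and 33.3%), beside 23.5% and 23.9% of all genes, and the median of -0.025 (-0.015 in KD and -0.035 in OE) changed sign across alternatives, from -0.095 to 0.013.

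Genes downstream of MAPK signalling went both ways, and the similar-amount ones among them were lower. FOSL1, a subunit of the AP-1 transcription factor, read 13.76, 13.77 and 13.78 in the parental libraries, 13.04, 13.06 and 13.05 in those labelled KD and 13.23, 13.25 and 13.26 in those labelled OE. All engineered libraries were below parental, and the pooled difference was -0.62 (standard error 0.0121, adjusted p = 4.4e-28, limma). The ephrin receptor gene EPHA2 had -0.40 and -0.32, EPHA4 -0.30 and -0.34 and the immediate early gene EGR3 -0.26 and -0.21. Of the whole list of immediate early and feedback genes, 7 of 21 measured genes were called higher and 11 lower (33.3% and 52.4%). For all genes the shares were 23.5% and 23.9%. The median of the list was -0.057 (-0.018 in KD and -0.096 in OE, -0.083 to -0.037 across alternatives). The median of KD replicate 2 was 0.035, unlike those of the other engineered libraries, which were below 0. Members called higher moved unevenly, as FOS with 1.13 and 0.46, EGR1 with 0.85 and -0.0098, SPRY4 with 0.56 and 0.021, ETV5 with 0.65 and 0.11 and PHLDA1 with 0.45 and 0.12.

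Several lower genes act in adhesion. FERMT3 and FERMT1 encode kindlins, which bind integrin tails and help to activate integrins. FERMT3 read 7.46, 7.41 and 7.37 in the parental libraries, 6.29, 6.26 and 6.32 in those labelled KD and 6.37, 6.36 and 6.43 in those labelled OE, with differences of -1.12 and -1.02 and a pooled difference of -1.07 (standard error 0.0384, adjusted p = 3.9e-21, limma). FERMT1 read 11.56, 11.55 and 11.54 in the parental libraries, 10.69, 10.67 and 10.68 in those labelled KD and 10.50, 10.56 and 10.53 in those labelled OE, with a pooled difference of -0.95 (standard error 0.0192, adjusted p = 1.4e-27, limma). The groups did not overlap in either gene. The integrin subunit genes ITGA2 with -0.51 and -0.44 and ITGB8 with -0.41 and -0.29 were lower too, unlike ITGA9. Of the list of integrins, kindlins and talins, 9 of 24 measured genes were called higher and 8 lower (37.5% and 33.3%). For all genes the shares were 23.5% and 23.9%. The 5 similar-amount lower genes of the list (20.8%, beside 5.63% of all genes) included FERMT1 and FERMT3. The median of the list, 0.033 (0.013 in KD and -0.012 in OE), became -0.0047 once regional medians were removed, an alternative described under genome position below. The medians of single libraries labelled OE were -0.034, 0.0073 and 0.0025. AJAP1, a protein of adherens junctions, had -0.88 and -0.77.

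Matrix genes went both ways. Of that list, 21 of 47 measured genes were called higher and 16 lower (44.7% and 34%), beside 23.5% and 23.9% of all genes. The median was 0.019 (0.015 in KD and 0.020 in OE, -0.0016 to 0.083 across alternatives). It was -0.0016 with regional medians removed. VCAN, the proteoglycan versican, had 0.68 and 0.64, SPARC 0.095 and 0.10, and the laminin chain gene LAMA1 -0.099 and -0.097. The pooled difference of SPARC went from 0.097 to 0.025 after quantile normalization, and it was no longer similar-amount there. Of the YAP and TEAD targets, 3 of 22 measured genes were called higher and 14 lower (13.6% and 63.6%), with a median of -0.079 (-0.15 in KD and -0.079 in OE, -0.13 to -0.066 across alternatives). The receptor tyrosine kinase gene AXL had -0.39 and -0.35, AMOTL2 -0.51 and -0.37 and CCDC80 0.76 and 0.61. LATS2, a kinase of the Hippo pathway, had -0.053 and -0.073, was not called in KD against parental alone (adjusted p = 0.0952, limma) and was not called in the pooled contrast without parental replicate 2 or 3, KD replicate 2 or OE replicate 1, nor with 1 group of 6, with adjusted p of up to 0.149 (limma).

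The rest of the lower 12 have varied roles. WNT9A, a Wnt ligand, read 7.95, 7.92 and 7.97 in the parental libraries, 6.47, 6.48 and 6.40 in those labelled KD and 6.95, 6.87 and 6.84 in those labelled OE, with a pooled difference of -1.28 (standard error 0.038, adjusted p = 3.0e-23, limma). The libraries labelled KD were the lowest. KLF4, a zinc finger transcription factor, read 10.11, 10.14 and 10.04 in the parental libraries, 9.15, 9.14 and 9.17 in those labelled KD and 9.42, 9.37 and 9.42 in those labelled OE. CSF2, the cytokine GM-CSF, had -0.92 and -0.72, MFNG, a glycosyltransferase that modifies Notch, -0.95 and -0.70, and LINC01151 -1.10 and -0.90. SPTBN5, a spectrin, had -1.03 and -0.69 at a ratio of 1.49, and left the similar-amount genes without KD replicate 2, KD replicate 3 or OE replicate 1 and after quantile normalization. KRT6B had -0.78 and -0.75 and UBBP4 -0.80 and -0.88. Both are uncertain, KRT6B because of its near-identical keratin copies and UBBP4 because it is a pseudogene whose exons all overlap other genes. Just outside the limit lay LYPD3 with -0.85 and -1.29 (ratio 1.511).

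Most targets of p53 were lower. Of their list, 1 of 19 genes with values was called higher and 15 lower (5.26% and 78.9%). For all genes the shares were 23.5% and 23.9%. The median of the list was -0.20 (-0.28 in KD and -0.16 in OE). Similar-amount lower were 8 (42.1%, beside 5.63% of all genes). CDKN1A encodes the cyclin-dependent kinase inhibitor that p53 induces to stop the cell cycle. CDKN1A read 12.39, 12.39 and 12.37 in the parental libraries, 11.82, 11.87 and 11.84 in those labelled KD and 11.90, 11.92 and 11.91 in those labelled OE. The libraries labelled KD were the lower ones and did not overlap those labelled OE. The pooled difference was -0.51 (standard error 0.0156, adjusted p = 6.8e-23, limma). GADD45A, a DNA damage response gene, had -0.55 and -0.40, the kinase gene PLK3 -0.45 and -0.41 and the death receptor gene FAS -0.34 and -0.37. BAX, which opens the outer mitochondrial membrane in apoptosis, had -0.33 and -0.26. CCNG1 was the exception, at 0.23 and 0.19.

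The cell cycle list went both ways. In it 11 of 33 measured genes were called higher and 17 lower (33.3% and 51.5%), beside 23.5% and 23.9% of all genes. The median was -0.058 (-0.069 in KD and -0.060 in OE). The similar-amount members that were lower were CCNE1, CCNE2, MCM2, MCM5, MCM6, MCM7, GINS2 and RRM2, which act at the start of S phase or in DNA replication, and FOXM1, a transcription factor known for driving mitotic genes. Those that were higher were CCNB1, CCNB2, AURKA, BUB1, BUB1B and TOP2A, which act mainly in mitosis. This division by phase was made after the values were seen. CCNE2 read 9.05, 9.16 and 9.26 in the parental libraries, 8.77, 8.69 and 8.70 in those labelled KD and 8.82, 8.78 and 8.75 in those labelled OE, with a pooled difference of -0.40 (standard error 0.0342, adjusted p = 1.1e-11, limma). Other genes overlap 37.1% of its exon bases. CCNB2 read 11.43, 11.45 and 11.40 in the parental libraries, 11.69, 11.68 and 11.67 in those labelled KD and 11.67, 11.63 and 11.62 in those labelled OE, with a pooled difference of 0.24 (standard error 0.0172, adjusted p = 2.4e-13, limma). Engineered libraries were below parental for the S phase cyclin and above it for the mitotic one. MCM5 had -0.24 and -0.21, CCNE1 -0.24 and -0.20 and BUB1 0.19 and 0.19. The pooled difference of MCM5 was -0.22 and ran from -0.24 to -0.11 across alternatives.

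**Figure D4:**
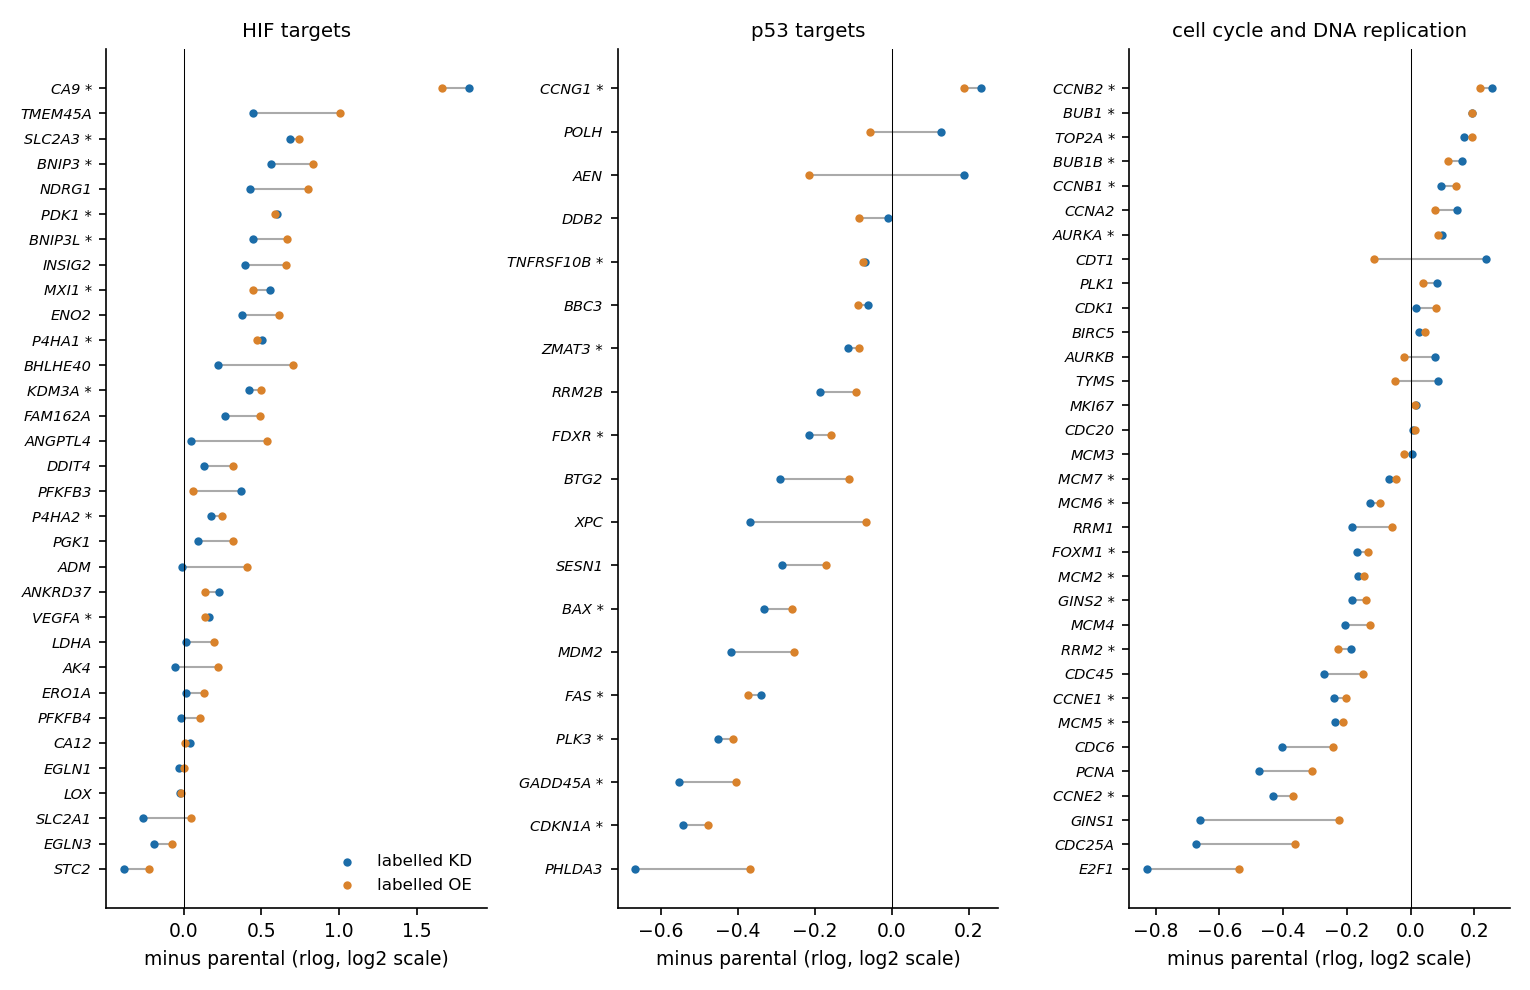
Difference from parental (rlog, log2 scale) of listed HIF targets, p53 targets and cell cycle genes with values, all shown but 1 HIF target not used here, in the libraries labelled KD (blue) and labelled OE (orange), with an asterisk on similar-amount genes. PDK1 at 0.60 and 0.59 and FAS at -0.34 and -0.37 show nearly equal differences in both lines.

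Most stress and protein turnover lists had more genes called lower than higher. Of the ATF4 targets and serine synthesis genes, 3 of 19 measured genes were called higher and 12 lower (15.8% and 63.2%). For all genes the shares were 23.5% and 23.9%. The median of the list was -0.091 (-0.17 in KD and -0.019 in OE). PHGDH, the first enzyme of serine synthesis, had 0.20 and 0.22, the pseudokinase gene TRIB3 -0.19 and -0.27 and CEBPB -0.14 and -0.14. Of the NRF2 targets, 4 of 17 measured genes were called higher and 11 lower (23.5% and 64.7%). The median was -0.14 (-0.25 in KD and -0.093 in OE). The thioredoxin reductase gene TXNRD1 had -0.072 and -0.11. Among proteasome subunits, 0 of 29 measured genes were called higher and 22 lower (0% and 75.9%), with a median of -0.10 (-0.15 in KD and -0.053 in OE), but only PSMA7 with -0.16 and -0.11 met the rule. The ER list had 7 called higher and 5 lower of 16. PDIA6, a disulfide isomerase, had 0.15 and 0.15, XBP1 -0.11 and -0.080 and ATF6 0.057 and 0.054. ATF6 was not called with the 6 engineered libraries as 1 group (adjusted p = 0.0775, limma). The median of the ER list turned from -0.022 (-0.019 in KD and -0.0020 in OE) to 0.033 with regional medians removed. Single libraries labelled KD had medians of -0.041, 0.036 and 0.018, so their sign was not the same in each.

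Ribosomal protein genes were mostly higher by little. Of these 41 of 70 measured genes were called higher and 11 lower (58.6% and 15.7%), beside 23.5% and 23.9% of all genes. The median was 0.044 (0.040 in KD and 0.054 in OE, 0.029 to 0.052 across alternatives). RPL30 had 0.14 and 0.11, RPS18 0.14 and 0.099 and RPS20 0.11 and 0.094, the last with a pooled difference of 0.10 that was 0.056 after quantile normalization. Such genes have near-identical pseudogene copies and are uncertain, and other genes overlap 40.8% of the exon bases of RPL30. In cholesterol synthesis and uptake, 11 of 21 measured genes were called higher and 4 lower (52.4% and 19%). The median was 0.068 (0.059 in KD and 0.034 in OE). INSIG1, a brake on sterol synthesis, had 0.32 and 0.29 and the sterol carrier STARD4 0.22 and 0.21. Of the lysosomal genes, 8 of 19 measured genes were called higher and 5 lower (42.1% and 26.3%). The protease gene CTSB had 0.26 and 0.22, PSAP 0.098 and 0.073 and the autophagy receptor gene SQSTM1 -0.18 and -0.24. The median of the lysosomal list was 0.035 (0.031 in KD and -0.014 in OE) and turned to -0.023 with regional medians removed. Single libraries labelled OE had medians of -0.018, 0.012 and 0.026.

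The immune and transporter lists had similar-amount shares near or below the 10.3% of all genes. Of the interferon-stimulated genes, 12 of 29 measured genes were called higher and 9 lower (41.4% and 31%), beside 23.5% and 23.9% of all genes. Their median was 0.026 (0.077 in KD and -0.026 in OE), so the lines went opposite ways. The medians of single libraries were 0.081, 0.076 and 0.069 in those labelled KD and -0.041, -0.022 and -0.014 in those labelled OE. Only OAS1 with -0.30 and -0.33 and SAMD9 with -0.26 and -0.25 were similar-amount. In antigen presentation by MHC class I, 5 of 11 measured genes were called higher and 2 lower (45.5% and 18.2%). The median was 0.034 (0.056 in KD and -0.040 in OE), again of opposite sign in the lines. NLRC5, a transcriptional activator of these genes, had -0.16 and -0.21. Of the ABC transporters, 7 of 36 measured genes were called higher and 14 lower (19.4% and 38.9%). The median was -0.010 (-0.041 in KD and 0.010 in OE). Similar-amount were 2 higher and 2 lower. Besides ABCB4, the shared ones were ABCA3 with 0.20 and 0.24, ABCB9 with -0.13 and -0.20 and ABCF1 with -0.093 and -0.12. Other genes overlap 24.6% of the exon bases of ABCB9 and, among the genes above, 25.2% of those of PDIA6 and 22.4% of those of SQSTM1.

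Position in the genome, which the rule did not use, was uneven. Over 9946 genes whose mean rlog was 8 or more, 16% were similar-amount, from 6.13% on chromosome 9 to 24.0% on chromosome 21. On chromosome 20, 52 were lower and 10 higher, and the median of its 272 genes was -0.11 in KD and -0.099 in OE. Its first 20 Mb, where FERMT1 lies, had medians of -0.12 and -0.14 over 64 genes, with 19 similar-amount genes lower and 1 higher. Between 100 and 120 Mb of chromosome X, 14 were higher and 1 lower, at medians of 0.078 and 0.083. On chromosome 9 the median was -0.29 in KD and -0.075 in OE. The block from 20 to 40 Mb, where CA9 lies, differed from this with medians of 0.031 and -0.10, and that of KLF4, from 100 to 120 Mb, had -0.36 and -0.071.

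With the median of each 20-Mb block removed in each library, an alternative chosen after seeing the data, 1487 genes were similar-amount higher and 1284 lower. Only 964 of the 2292 were among them, so which genes count as shared depends on this step. Of the 83 similar-amount genes chosen for naming as the methods state, 52 stayed similar-amount, CA9 among them. Those still called with the same sign but no longer similar-amount were LINC01608, AREG, SPTBN5, TPI1, SUCLG2, COX6B1, DNAJA3, PDIA6, STARD4, SAMD9, NLRC5, GADD45A, FOSL1, EPHA2, AMOTL2, SPARC, TXNRD1, CTSB, ABCA3, PSMA7 and RPS20. NDUFS6, XBP1, LATS2, PSAP, ABCB9 and RPL30 changed sign, and SDHC, COX7A2L, TRIB3 and ATF6 were no longer called. Block medians contain the genes' own changes, so this step also removes part of them.

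**Figure D5:**
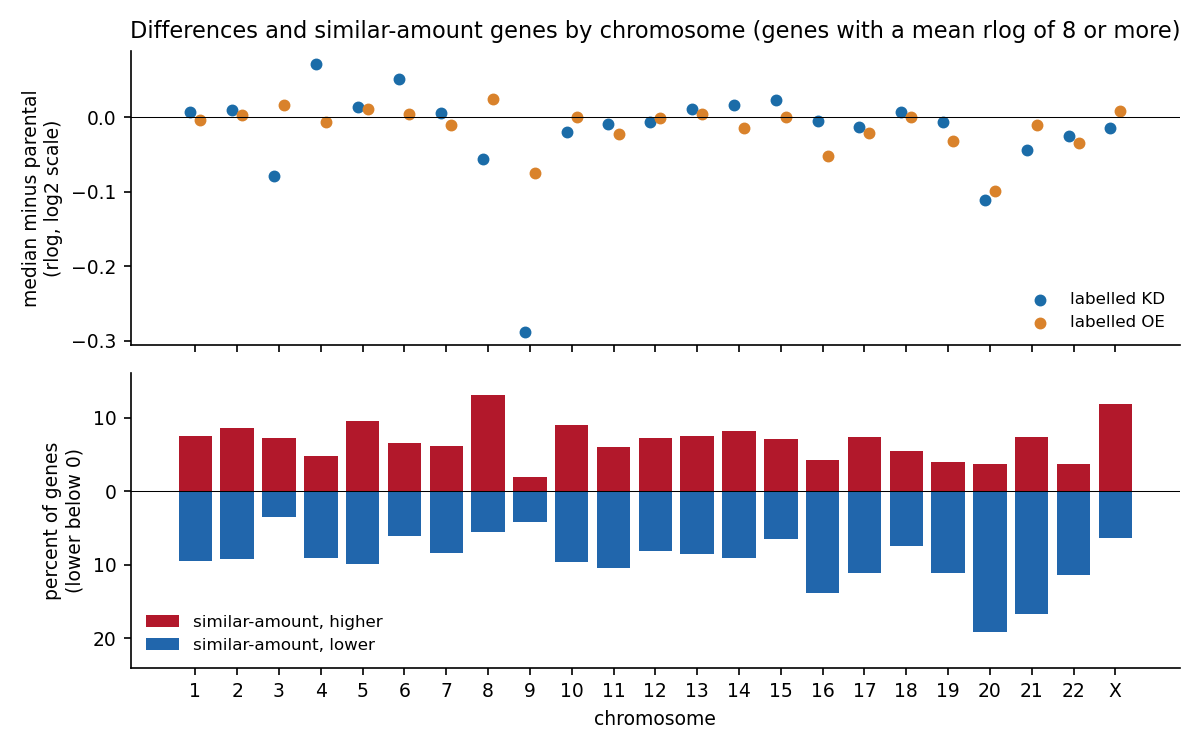
Median difference from parental (rlog, log2 scale) in the libraries labelled KD and labelled OE by chromosome (top), and percent of genes that were similar-amount higher or lower (bottom), over 9946 genes whose mean rlog was 8 or more. Chromosome 20 is low in both lines and chromosome 9 is low mainly in the libraries labelled KD.

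Several of the largest pooled differences were not shared evenly, unlike that of CA9. ABCA8, a lipid transporter, had 2.43 in KD and 1.36 in OE, beyond the factor of 1.5. The guanine deaminase gene GDA had -2.60 and -0.62, and the cadherin gene CDH10 2.94 and 0.19. In these genes the libraries labelled KD were the further ones from parental.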

How the data were processed

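RNA-seq libraries were prepared with a TruSeq RNA v2 kit, which does not mark strand. According to the submitters' processing notes and the study's methods, the authors used cutadapt for trimming, HISAT2 for alignment to GRCh38, featureCounts of Subread for gene counts and DESeq2, and dropped genes whose total count was below 10. Versions are not given in the sources used here. What they deposited are log2 values regularized by that tool (rlog), scaled for library size and shrunken toward each gene's mean, so the depth of each library is unknown (the study's methods give a nominal read number only) and no linear fold is given. A total of 3 empty columns was not used. Group means were fitted to all 9 libraries with limma 3.58.1 in R 4.3.3 (variance trend, Benjamini-Hochberg adjustment over 22290 genes, called under 0.05), with the contrast of both engineered groups at equal weight against parental. The procedure was tested on simulated data. Positions and overlaps came from GENCODE release 44, promoters from the RefSeq table of GRCh38.p14. Named genes were TRAP1, the 12 similar-amount genes in each direction with the largest smaller difference, up to 4 similar-amount genes per list, and, of the 50 genes nearest the factor on each side, the 2 with the largest pooled difference, apart from a few not used here; others named were chosen after their values were seen. Members and lists were chosen with earlier results of these data known.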

Additional observations from a re-analysis of the deposited data

Results flagged for a closer look

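A shared direction does not make the lines equal. Of the 85 genes named by the rule in the methods, 37 differed between the libraries labelled KD and those labelled OE in a test of that difference (limma, called under 0.05). Over all genes 47.3% were called in that test, and of the 2292 similar-amount genes 1945 were not. The rule that picked these genes limits the factor between the lines and so favours that count. The parental libraries do not enter that difference, but they do enter its error. For TRAP1, the targeted gene, KD minus OE was 0.12. Values in parentheses are KD minus OE in rlog. Other genes of the report are not covered by this count.

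Genes higher than parental in both lines, and further so in the libraries labelled KD, were CA9 (0.18), ADAMTS4 (0.50), ABCB4 (0.32), MOXD1 (0.37), LINC01608 (0.30), FOLH1 (0.39), HK2 (0.091), MT-CO1 (0.034), CCDC80 (0.16), CTSB (0.039) and RPS18 (0.045). Higher in both, and further so in the libraries labelled OE, were NRN1 (-0.10), PPFIA4 (-0.32), SLC2A3 (-0.059) and BNIP3 (-0.27). Among genes lower than parental, the libraries labelled KD were the lower ones for AREG (-0.39), WNT9A (-0.44), LINC01151 (-0.19), AJAP1 (-0.11), CSF2 (-0.20), MFNG (-0.25), KLF4 (-0.25), SPTBN5 (-0.34), CDKN1A (-0.067), GADD45A (-0.15), FOSL1 (-0.20), EPHA2 (-0.072), AMOTL2 (-0.14), AXL (-0.049), ITGA2 (-0.071) and PSMA7 (-0.051). The libraries labelled OE were the lower ones for FERMT1 (0.15), TRIB3 (0.078), SQSTM1 (0.065), ABCB9 (0.063) and LYPD3 (0.44). LYPD3 lies just outside the factor of 1.5. The cause of these differences was not tested.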

How the results depend on the processing

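Leaving out each library in turn, genes called numbered 9561 to 10440 (4680 to 5174 higher, 4861 to 5266 lower), and similar-amount genes 1018 to 1089 higher and 1231 to 1325 lower. With the replicate number as a replicate block, 10630 genes were called, and 1033 were similar-amount higher and 1247 lower; same-numbered libraries had correlations of deviations from -0.046 to 0.10, so the numbers do not pair them. Counts moved by over 1.5 times in these settings: 1 group of 6 engineered libraries (4178 called, 1937 higher, 2241 lower, where the gap between the lines adds to the error), a pooled difference over 0.5 (420 called, 234 higher, 186 lower; 46 similar-amount higher and 46 lower), a stricter factor (574 and 724) and a factor of 2 (1715 and 1939). Median centring moved the median pooled difference of all genes to -0.013. It gave 4480 genes called higher and 6379 lower, and 770 similar-amount higher and 1712 lower. Of the 2292 similar-amount genes, 1938 to 2292 were shared with the other refits, and 964 after removal of 20-Mb block medians, which was chosen after seeing the data and left the mitochondrial genome as it was. That removal called 12740 genes, 6708 higher and 6032 lower. It reversed NDUFS6 (0.017), XBP1 (0.016), LATS2 (0.044), PSAP (-0.0065), ABCB9 (0.0021) and RPL30 (-0.00016), none of them then called. The cause was not tested. Depth per library cannot be read from rlog, and where the mean rlog was under 5, 3.88% of genes were similar-amount against 17.4% at 11 or more.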
